A study of Mus musculus with 10 samples.

Results

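The genes described here encode the proteins of the cytosolic ribosome. They were chosen by name: a mouse symbol made of Rpl or Rps and a number, with an optional letter or digit for a variant, or one of Rplp0, Rplp1, Rplp2, Rpsa and Fau. Pseudogene names and the Rps6k kinases were left out. The rule took 84 of the 31053 genes in the count tables, 51 of the large subunit and 33 of the small subunit. The choice used no measured value, but it was made with earlier results of these data known.

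The study asked how alveolar type II (AT2) cells, the surfactant-making stem cells of the alveolus, change after they acquire an oncogenic mutation, and how wildtype cells in the same lungs respond. All mice were 8 weeks old and carried Sftpc-CreERT2, a tamoxifen-activated Cre recombinase driven by the promoter of the AT2 gene Sftpc, and all received 3 doses of 0.2 mg tamoxifen per gram of body weight. In Sftpc-CreERT2; R26R-Confetti mice the recombined cells are wildtype whether they become red (RFP+) or yellow (YFP+), and each colour gave 1 library. In mice of the other line, called the mosaic line here, recombination makes an RFP+ cell mutant and leaves a YFP+ cell wildtype, so RFP+ cells are mutant and YFP+ cells are their wildtype neighbours. These were sorted 4 days and 2 weeks after induction, with 2 libraries for each colour and time. Every library came from EpCAM+ epithelial cells of at least 2 pooled lungs and was profiled by 10x Genomics droplet sequencing, which counts each captured mRNA molecule once through a molecular identifier (UMI). The labels give no time for the Confetti libraries and the methods place them at 2 weeks, so the 4-day comparisons with Confetti are not matched in time. Nothing states that replicates came from separate inductions, so p-values measure the spread between these libraries. Each Confetti colour was fitted as its own group of 1 library, so the spread in the tests comes from the mosaic libraries alone. Nothing states that the 2 Confetti colours came from separate lungs. The methods say that libraries were made over 2 days, without naming the day of each.

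A ribosome consists of a large and a small subunit, in which ribosomal RNA carries out decoding and peptide bond formation while the proteins fold and hold the RNA and form the sites where factors bind. Growing cells make these proteins in nearly equal numbers. Their mRNAs usually begin with a run of pyrimidines, the terminal oligopyrimidine tract, through which mTORC1 signalling controls their translation, and transcription factors such as Myc raise ribosome production during growth. AT2 cells devote much of their mRNA to surfactant, so a share of all UMIs sets the ribosomal protein mRNAs against a transcriptome that few surfactant genes dominate.

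Of 42012 barcodes, 32698 passed limits on genes, UMIs and mitochondrial UMIs, and 30599 of those had no UMI of the leukocyte gene Ptprc. Those cells were summed within each library, 1138 to 4306 cells and 8163707 to 71669755 UMIs per library. The 2-week RFP cells were the deepest, with medians of 15685 and 13199 UMIs per cell in replicates 1 and 2 against 3251 to 6577 in the other 8 libraries. Cells with Ptprc made up 0.964% to 34.8% of quality cells, and the highest values were 34.8% in 2-week YFP replicate 2 and 19.8% in 2-week RFP replicate 2. The 10 AT2 markers held 11.9% ± 4.12 (SD, n = 4) of UMIs in the mosaic RFP libraries, 18.9% ± 0.542 (SD, n = 4) in the YFP libraries and 16.1% ± 1.31 (SD, n = 2) in Confetti, and none was at 0. The female transcript Xist held 0.0101% to 0.0720% of UMIs in Confetti and in all libraries of replicate 1. It was near 0 in all libraries of replicate 2. The Y-linked genes Ddx3y, Eif2s3y, Kdm5d and Uty together held 0% and 1.37e-05% of UMIs in Confetti RFP and YFP. In the mosaic libraries they held 0.00333% to 0.0101%. The mix of sexes thus differed between replicate numbers and between Confetti and the mosaic line. The libraries labelled 4-day RFP replicates 1 and 2 differed in their ribosomal protein share, described next, and in markers. In that order the AT2 markers held 17.9% and 8.97%, the 7 DATP markers 0.164% and 0.299%, and the 12 immune markers 0.00299% and 0.0771%, with Ptprc at 0 in both by the choice of cells and Marco and Cd3e also at 0 in replicate 1. The immune markers held 0.00217% to 0.0943% over the 10 libraries, highest in 2-week YFP replicate 2. In cells that also lacked Tyrobp, Fcer1g, Laptm5 and Coro1a the members held 16.7% and 23.5% of UMIs in 4-day RFP replicates 1 and 2, and with AT2 markers left out of the denominator 20.3% and 25.6%.

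The members together held a larger share of the transcriptome in the mutant cells than in either kind of wildtype cell. They took 13.6% of UMIs in Confetti RFP and 13.1% in Confetti YFP. In mosaic YFP they took 13.2% and 13.9% at 4 days and 12.04% and 14.9% at 2 weeks. In the RFP libraries the shares were 16.7% and 23.3% at 4 days and 18.2% and 21.04% at 2 weeks, so all 4 mutant libraries lay above all 6 wildtype libraries. The means were 19.8% ± 2.96 (SD, n = 4) in RFP and 13.5% ± 1.21 (SD, n = 4) in YFP, a ratio of 1.46, with 1.47 at 4 days and 1.45 at 2 weeks. The mean of Confetti was 13.4% ± 0.330 (SD, n = 2). In sums of this kind, fewer cells of a type and less RNA per cell cannot be told apart, and a share also moves with what the other genes do.

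Both subunits showed this difference. The 51 large subunit members summed to 10.99% ± 1.71 (SD, n = 4) in RFP and 7.56% ± 0.713 (SD, n = 4) in YFP. The 33 small subunit members summed to 8.81% ± 1.25 and 5.96% ± 0.499. The ratio of the large to the small sum stayed between 1.23 and 1.29 in all 10 libraries.

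**Figure D1:**
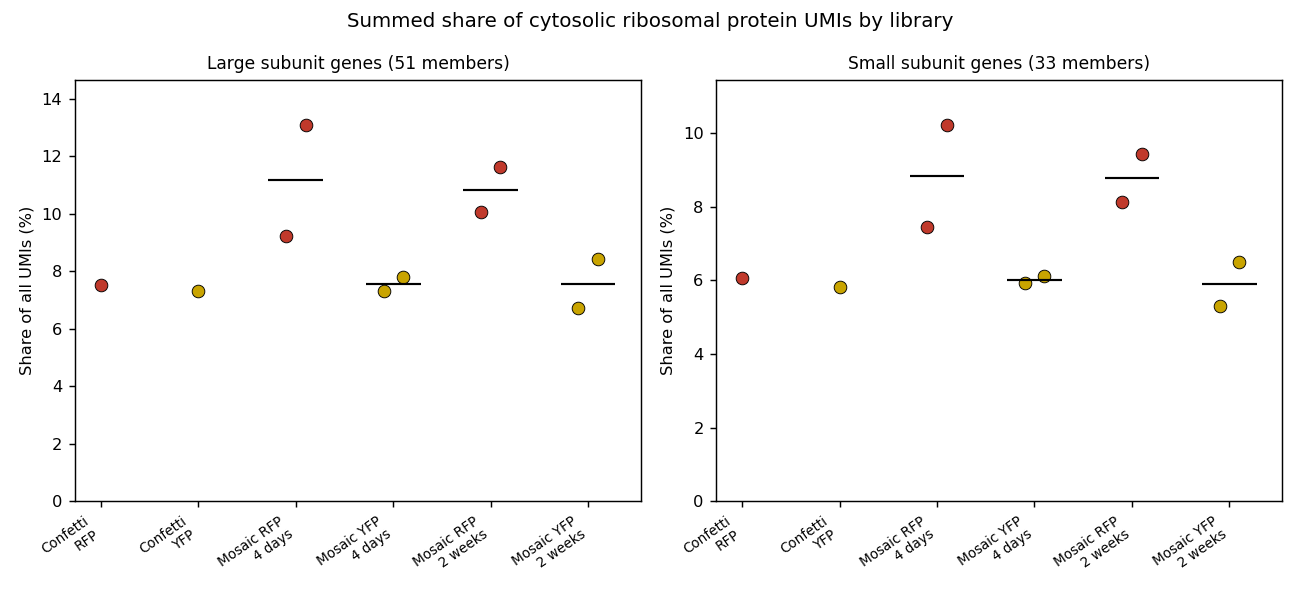
Share of all UMIs (%, linear axis from 0) held by the large subunit members (left) and the small subunit members (right) in each of the 10 libraries, with points for libraries and a line for the mean of a group of 2. In both panels the 4 mosaic RFP points lie above the 6 others, and the RFP libraries at 4 days are the farthest apart.

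Other choices of cells or denominator were compared. In cells of 3000 to 10000 UMIs, the lowest RFP library was at 16.2% and the highest other library at 13.9%. With the AT2 markers left out of the denominator these values were 20.3% and 18.4%, and with Ptprc cells kept in they were 16.7% and 16.4%. In the window of 3000 to 10000 UMIs median depth was still higher in 2-week RFP, at 7047.5 and 7031 UMIs against 3608 to 6437 elsewhere. In narrower ranges of depth the libraries separated at 5000 to 10000 UMIs, with 16.6% as the lowest RFP value and 13.9% as the highest other value, and were next to each other at 10000 to 20000 UMIs, with 16.5% and 16.4%. They overlapped at 3000 to 5000 UMIs, where 2-week RFP replicate 1 was at 14.3% and 2-week YFP replicate 2 at 15.1%. They also overlapped at 2000 to 3000 UMIs, where 2-week YFP replicate 2 reached 16.7% in 38 cells while 2-week RFP replicate 1 was at 13.5% and 4-day RFP replicate 1 at 14.6%, and above 20000 UMIs, where 2-week YFP replicate 2 was at 23.7% (21 cells) and 2-week RFP replicate 1 at 19.7%. In RFP the share was higher in cells with a UMI of Cldn4, a claudin that marks the damage-associated transient progenitor (DATP) state. In RFP libraries those cells held 22.2% (144 cells) and 31.4% (430 cells) at 4 days and 22.3% (1421 cells) and 22.7% (1385 cells) at 2 weeks, against 16.3%, 19.3%, 14.97% and 19.1% in cells without Cldn4. Wildtype cells with Cldn4 were few and varied: 26.4% (50 cells) against 13.7% without Cldn4 in 2-week YFP replicate 2, 17.6% (66 cells) against 11.9% in 2-week YFP replicate 1, 13.65% (35 cells) against 13.9% in 4-day YFP replicate 2, and 8.53% (25 cells) against 13.2% in Confetti YFP. The other 2 wildtype libraries had under 20 such cells. Cells with Cldn4 were deeper in these libraries, with medians of 11762.5 and 6511.5 UMIs with and without it in 2-week YFP replicate 2. Within 3000 to 10000 UMIs the values with and without Cldn4 were 17.3% (21 cells) and 13.7% in 2-week YFP replicate 2, 15.5% (33 cells) and 11.9% in 2-week YFP replicate 1, and 16.1% (26 cells) and 13.9% in 4-day YFP replicate 2, where the order turned. In RFP they were 21.9% and 16.2%, and 32.2% and 19.1%, in replicates 1 and 2 at 4 days, and 22.5% and 14.5%, and 20.04% and 18.8%, at 2 weeks. After all Cldn4 cells were left out, the lowest RFP library still lay above the highest wildtype library, at 14.97% against 13.9%. The 7 DATP markers summed to 0.402% ± 0.222 (SD, n = 4) in RFP and 0.121% ± 0.0333 (SD, n = 4) in YFP, and their part in the remaining difference was not tested. Such contrasts were not particular to Cldn4. Cells without a UMI of Lcn2 held 31.7% against 18.1% with it in 4-day RFP replicate 2, and 23.2% against 13.5% in 2-week YFP replicate 2. In both Confetti libraries and 4-day YFP replicate 1 the share was not higher without Lcn2.

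Gene by gene, RFP and YFP libraries were compared over both times with a time term (edgeR's quasi-likelihood test, p-values adjusted over all genes by Benjamini-Hochberg). Of the 81 members tested, 76 had a log2 fold change above 0, with a median of 0.45 beside -0.04 over all 13511 genes. No member passed at an adjusted p of 0.05, and neither did any gene (0% of those tested). At an unadjusted p under 0.05, 32 of 81 members were higher and 0 lower, beside 8.55% of all genes higher and 7.62% lower. That count was 56 with library totals in place of TMM factors (12.2% of genes), 50 and 51 with the 2 kinds of replicate block (12.4% and 10.4%), 16 without 2-week YFP replicate 1 (5.74%), 18 without 2-week RFP replicate 2 (5.99%) and 18 without 4-day RFP replicate 2 (5.90%). DESeq2 passed 16 members, all higher, beside 3.33% of all genes higher. The libraries of 52 members did not overlap, with all 4 RFP libraries above all 4 YFP libraries on the share scale, beside 4.69% of all genes, and no member showed the opposite order, beside 2.24% of genes. After TMM scaling, which removes shifts common to most genes, 18 of 81 did not overlap, all higher, beside 3.26% of genes higher and 3.50% lower.

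The member with the largest fold change was Rpl12, a large subunit protein at the base of the stalk to which elongation factors bind. Its shares were 0.0444% and 0.0357% in Confetti, 0.0432% and 0.0372% in 4-day YFP, and 0.0360% and 0.0482% in 2-week YFP. In RFP they were 0.0661% and 0.125% at 4 days and 0.117% and 0.155% at 2 weeks, with no overlap between mutant and wildtype libraries. The log2 fold change was 1.33 ± 0.26 (SE), with an adjusted p of 0.180 in edgeR and of 0.0001 in DESeq2. With each combination of time and replicate number as a block, Rpl12 passed in edgeR (adjusted p = 0.0499), the 1 member that did, beside 0.599% of genes higher. Rpl17, another large subunit protein, averaged 0.149% ± 0.0614 (SD, n = 4) in RFP and 0.0583% ± 0.00414 (SD, n = 4) in YFP. Its log2 fold change was 1.16 ± 0.29, with adjusted p of 0.180 and 0.0035 in the same tests.

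Rps6, the small subunit protein that S6 kinases phosphorylate downstream of mTORC1, was at 0.0458% and 0.0353% in Confetti and between 0.0386% and 0.0462% in the 4 YFP libraries. In RFP it was at 0.0525% and 0.0758% at 4 days and at 0.0956% and 0.136% at 2 weeks. The 2 early mutant libraries were thus nearer to wildtype than the 2 late ones, and the groups did not overlap. Over both times the log2 fold change of Rps6 was 0.91 ± 0.25 (adjusted p = 0.185 in edgeR, 0.0125 in DESeq2). Rpl5, which travels with Rpl11 and can bind the p53 regulator Mdm2, had 0.92 ± 0.27 (0.202 and 0.0218), and its partner Rpl11 had 0.31 ± 0.25 (0.577 and 0.540). Rps12 had 0.89 ± 0.22 (0.180 and 0.0018) and Rpl4 had 0.88 ± 0.20 (0.180 and 0.0011).

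The proteins of the stalk and several members with a second life outside the ribosome covered a range of fold changes. Over both times the log2 difference of Rplp0, which anchors the stalk, was 0.66 ± 0.25, that of Rplp1 was 0.67 ± 0.21 and that of Rplp2 was 0.38 ± 0.25. Rpsa, also known as a laminin receptor, had 0.75 ± 0.23. Fau and Rps27a, whose products are made as fusions with a ubiquitin-like protein and with ubiquitin, had 0.17 ± 0.23 and 0.42 ± 0.24. Of these 6, Rplp1 and Rpsa passed in DESeq2 (adjusted p = 0.0243 and 0.0268) and none in edgeR.

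The bases around the start sites of 7 members are printed so that the pyrimidine run at the mRNA's first base can be looked for in genes that differed in fold change. Rpl12, Rps6, Rpl5 and Rps12 are at the high end, and Rps27, Rps28 and Rpl41 were near 0. Each line gives 30 bases centred on a start site on the gene's own strand (RefSeq, GRCm38.p6), and capitals mark the longest run of C and T within 10 bases of the start.
Rpl12 (chr2:32961697-32961726, plus strand): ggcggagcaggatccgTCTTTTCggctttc
Rps6 (chr4:86857353-86857382, minus strand): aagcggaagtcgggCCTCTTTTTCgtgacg
Rpl5 (chr5:107900513-107900542, plus strand): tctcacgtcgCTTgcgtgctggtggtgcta
Rps12 (chr10:23787195-23787224, minus strand): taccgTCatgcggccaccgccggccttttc
Rps27 (chr3:90213634-90213663, minus strand): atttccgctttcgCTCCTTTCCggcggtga
Rps28 (chr17:33824548-33824577, minus strand): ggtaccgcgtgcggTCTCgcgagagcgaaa
Rpl41 (chr10:128549154-128549183, minus strand): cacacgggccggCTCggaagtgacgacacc

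Inside this window the runs of Rpl12, Rps6, Rpl5 and Rps12 measured 7, 10, 3 and 2 bases, and those of Rps27, Rps28 and Rpl41 9, 4 and 3, so long and short runs occurred in both sets. The end of the window divides a longer run in Rps12, which begins 8 bases after the start and measures 11 bases to its own end, past the printed line. The runs printed for the other 6 genes end inside the window. Of the 84 members 64 had an entry, with 76 start sites in all, and 34 of these sites (44.7%) held a run of at least 6 bases, each C or T, within that window of 20 bases. Among all 32851 start sites in the table, 6631 (20.2%) did. With runs that reach past the window counted to their own ends, the shares were 52.6% and 29.2%. Only the gene's own strand was read, and overlap with other motifs was not examined. The run was present at 48.1% of the sites of the shortest members and 47.8% of those of the longest, the groups by coding length that follow.

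At 4 days, 82 of the 83 members tested had a log2 fold change above 0, with a median of 0.51 beside -0.03 over all genes. Without 4-day RFP replicate 2 the median was 0.25, with 77 of 82 above 0 and 0 higher at an unadjusted p under 0.05, beside 0.452% of genes. Of the 83, 69 had both RFP libraries above both YFP libraries on the share scale, beside 14.1% of all genes, and 1 below (Rpl7l1), beside 10.1%. In edgeR's quasi-likelihood test no member passed at an adjusted p of 0.05, beside 0% of all genes. At an unadjusted p under 0.05, 1 member passed, Rpl12 at 1.17 ± 0.38, beside 2.59% of genes higher. That count was 10 without 4-day RFP replicate 1 (7.30% of genes), 0 without 4-day YFP replicate 2 (1.69%), 10 with library totals (2.91%), and 10 and 11 with the blocks by number (3.46%) and by time and number (4.82%). DESeq2 passed 0 members, beside 0.264% of genes higher. The RFP replicates were far apart at this time: Rps28 was at 0.493% and 0.929%, Rpl35 at 0.205% and 0.471%, and Rpl41, the shortest member, at 0.520% and 0.986%. In 4-day YFP the same 3 genes were at 0.379% and 0.484%, 0.150% and 0.184%, and 0.435% and 0.615%.

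At 2 weeks the median was again 0.51, beside -0.01 over all genes, but the members were spread more widely and 69 of 83 were above 0. Without 2-week YFP replicate 1 the median was 0.31, with 60 of 83 above 0, and without 2-week YFP replicate 2 it was 0.82. In cells of 3000 to 10000 UMIs it was 0.17. Both RFP libraries lay above both YFP libraries for 64 members, beside 33.4% of all genes, and below them for 6, beside 16.6%. No member passed in edgeR (0% of all genes), 18 were higher at an unadjusted p under 0.05 (7.20% of genes; 7 and 2.80% without 2-week RFP replicate 2, 8 and 3.53% without 2-week YFP replicate 1), and DESeq2 passed 7, all higher (1.28% of genes), among them Rps12, Rpl4, Rps6, Rpl17, Rpl12 and Rpl5. The log2 fold changes of these 6 ran from 1.19 ± 0.26 for Rpl4 to 1.56 ± 0.39 for Rpl17. The 6 members with lower RFP libraries were Rps27, Rps28, Rps29, Rpl37a, Rpl38 and the near-silent Rpl3l.

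Of these 6, Rps28, Rps29 and Rpl37a are among the 10 most abundant members. Rps28 was at 0.333% and 0.288% in 2-week RFP and at 0.416% and 0.454% in 2-week YFP, where at 4 days its order had been the reverse. The log2 fold change of Rps28 was 0.62 ± 0.40 at 4 days and -0.62 ± 0.40 at 2 weeks. Rps27, a small subunit protein with a zinc finger, was at 0.307% and 0.400% in Confetti, at 0.321% and 0.431% in 4-day RFP, and at 0.185% and 0.174% in 2-week RFP. The 2 late mutant libraries were the lowest of all 10 for Rps27, and YFP held 0.313% and 0.272% at 4 days and 0.245% and 0.255% at 2 weeks. Within RFP, from 4 days to 2 weeks, its log2 difference was -1.07 ± 0.29, which did not pass in edgeR (adjusted p = 0.567) and passed in DESeq2 (adjusted p = 0.0105).

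On the share scale, Rps27, Rps28, Rps29 and Rpl37a had both RFP libraries above both YFP libraries at 4 days and below them at 2 weeks, which was true of 0.553% of all genes. Rpl7l1, a paralog of Rpl7, had the opposite turn, as did 1.47% of genes. On TMM-scaled CPM only Rps27 kept its turn, beside 0.634% of genes, and no member had the opposite one, beside 1.52%. On the share scale both RFP libraries were above both YFP libraries at each time for 57 of 83 members, beside 8.59% of genes, and below at each time for 0, beside 4.15%. The difference between the 2 times' effects was tested directly by an interaction term in edgeR. No member passed (adjusted p of 1.00 for each of these 5 genes). At an unadjusted p under 0.05, 0 passed, beside 0.856% of genes higher and 0.944% lower. In cells of 3000 to 10000 UMIs, 4 members were lower at that level (0.858% of genes). DESeq2 passed 0 members, with 5 lower at an unadjusted p under 0.05 (1.39% of genes).

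**Figure D2:**
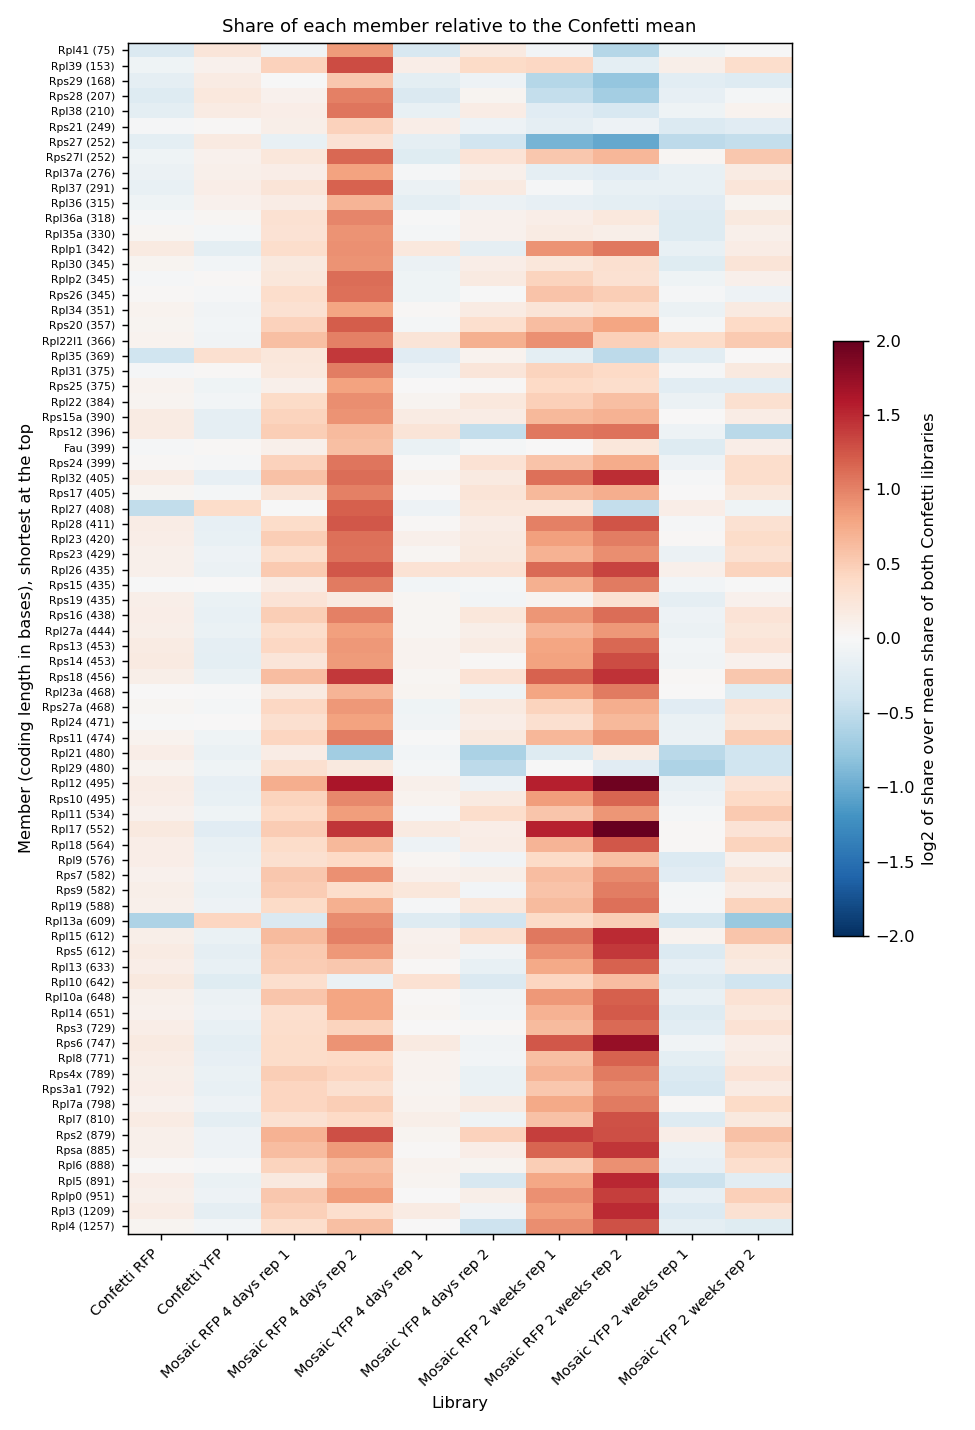
Log2 of each member's share of UMIs over its mean share in the 2 Confetti libraries (colour), for 78 members in rows ordered by coding length with the shortest at the top, and the 10 libraries in columns. In the 2-week RFP columns the lower rows are red and several of the upper rows are blue, whereas the 4-day RFP columns are red throughout most rows.

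Members that diverged at 2 weeks differed in the length of their coding sequence. After this had been seen, the 80 members with a mean of at least 50 CPM (member UMIs scaled to library size) were split by coding length (GENCODE M21) into 26 of 75 to 396 bases, 28 of 399 to 564 bases and 26 of 576 to 1257 bases. Rpl7l1 and the near-silent Rpl3l, Rpl39l and Rpl10l fell below that level. The 10x counts are tags of 1 per molecule, so they were not divided by length. The shortest members include Rpl41, Rpl39, Rpl38, Rps28, Rps29 and Rps27, and the longest include Rpl3, Rpl4, Rpl5, Rplp0 and Rps6.

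The summed share of the longest members was 3.64% and 3.04% in Confetti, 4.62% and 5.14% in 4-day RFP, 3.56% and 3.34% in 4-day YFP, 5.67% and 7.42% in 2-week RFP, and 2.99% and 3.93% in 2-week YFP. All 4 RFP libraries were above the 6 others, and the 2 late ones were highest. The summed share of the shortest members was 5.20% and 5.89% in Confetti, 6.33% and 10.4% in 4-day RFP, 5.21% and 5.84% in 4-day YFP, 5.84% and 5.49% in 2-week RFP, and 5.00% and 5.76% in 2-week YFP. Here the 2-week RFP libraries lay within the range of the wildtype libraries, and 4-day RFP replicate 2 was far above the rest. The ratio of the shortest to the longest sum was 1.03 and 0.739 in 2-week RFP and between 1.37 and 2.02 in the other 8 libraries.

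**Figure D3:**
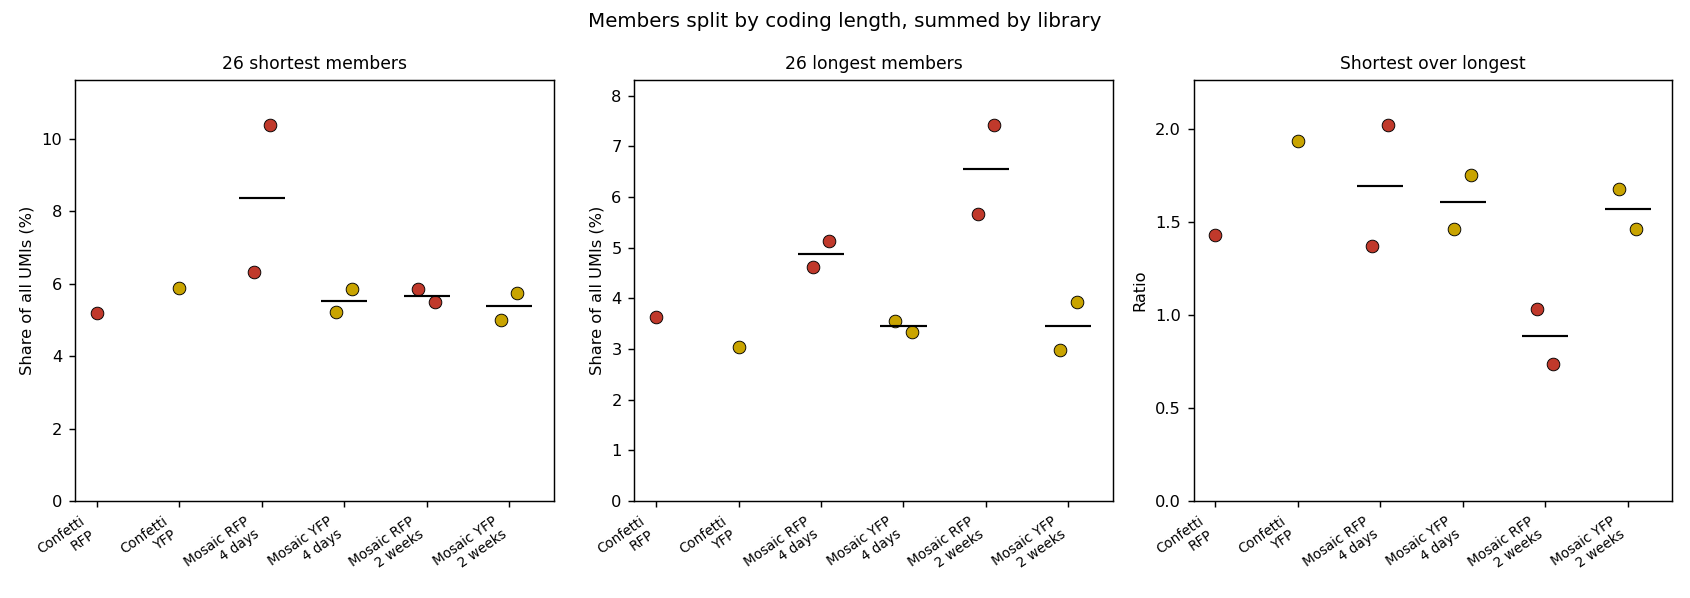
Summed share of all UMIs (%) of the 26 shortest members and of the 26 longest, and the ratio of the 2 sums, with a point for each library and a line for the mean of a group of 2. The ratio is 1.03 and 0.739 in 2-week RFP and at least 1.37 elsewhere.

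In the fits of single genes, the median log2 fold change between RFP and YFP at 4 days was 0.51 for the shortest, 0.52 for the middle and 0.47 for the longest members. At 2 weeks the medians were 0.08, 0.57 and 0.81, with 15 of 26, 27 of 28 and 26 of 26 above 0. The 2-week median of the shortest members lay on either side of 0 with the choice of libraries and cells. It was -0.17 without 2-week YFP replicate 1 and 0.38 without replicate 2, where that of the longest was 0.54 and 1.13. In cells of 3000 to 10000 UMIs the medians of the shortest, middle and longest were -0.24, 0.28 and 0.41. That of the shortest was -0.07 with Ptprc cells and -0.06 without Cldn4 cells, where that of the longest was 0.69 and 0.64. Between the times within RFP the medians were -0.40, 0.16 and 0.43, with 2 of 26, 20 of 28 and 25 of 26 above 0. In cells of 3000 to 10000 UMIs they were -0.67, -0.17 and 0.03. Within YFP the medians over all cells were 0.02, 0.05 and 0.05. They were 0.27, 0.27 and 0.13 without 4-day YFP replicate 2, and -0.20, -0.22 and -0.26 without 2-week YFP replicate 2. Leaving out 4-day RFP replicate 2 changed the values that include it. The medians at 4 days became 0.14, 0.25 and 0.36, which increase with length, and those between the times in RFP became -0.10, 0.41 and 0.55. Leaving out replicate 1 in its place gave 0.78, 0.75 and 0.49 at 4 days and -0.66, -0.08 and 0.45 between the times. Across the 80 members, Spearman's rho of coding length with the log2 fold change was -0.15 at 4 days, 0.71 at 2 weeks, 0.82 between the times in RFP and 0.30 between the times in YFP. These rho values describe genes measured in the same libraries, which are not independent replicates, and the 2-week and between-time values share the 2-week RFP libraries.

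Across 13756 coding genes the rho with coding length was -0.04 at 4 days, 0.01 at 2 weeks and -0.11 between the times in RFP. The 821 genes with coding sequences as short as the shortest members had a median of -0.17 at 2 weeks and -0.14 between the times in RFP. The 4609 as long as the longest members had 0.04 and 0.15, so these medians ran in the direction of the members' with a smaller gap. Mean abundance also moved with the fold change of members: rho of mean share with the log2 fold change at 2 weeks was -0.47, and of mean share with coding length -0.32, and these were not separated. Depth was also higher in the 2-week RFP cells. In cells of 3000 to 10000 UMIs the ratio of shortest to longest was 1.17 and 0.788 in 2-week RFP and 1.38 to 2.04 elsewhere, and without Cldn4 cells it was 1.06 and 0.779 against 1.38 to 1.96.

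**Figure D4:**
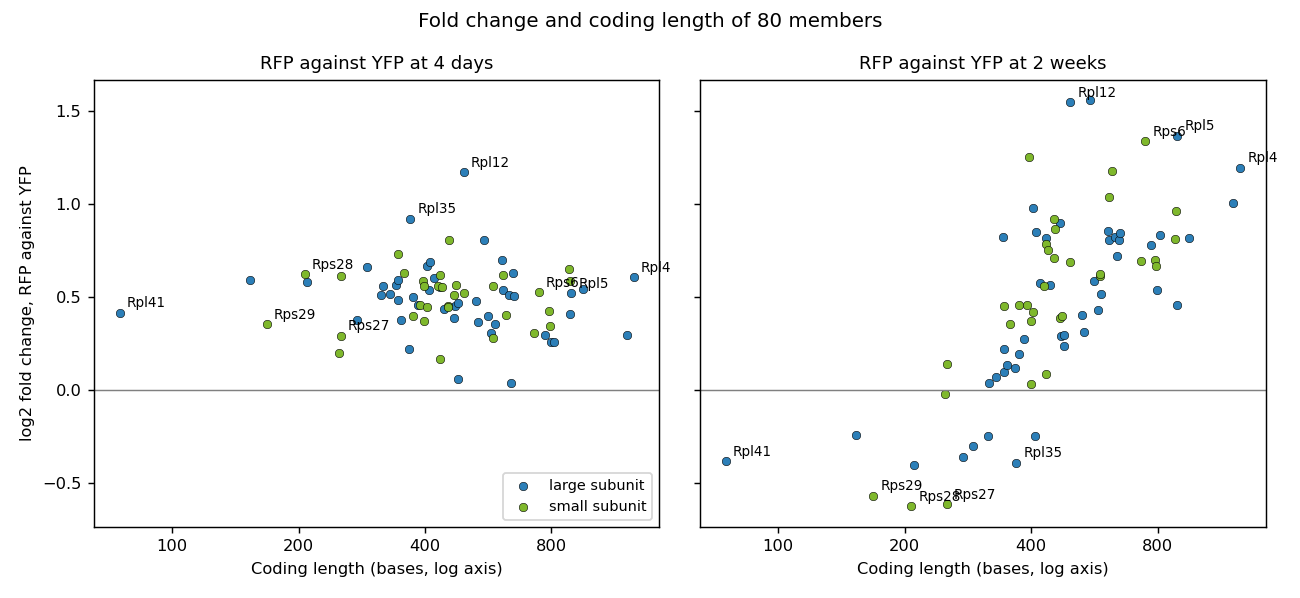
Log2 fold change between RFP and YFP (vertical axis) against coding length in bases (log axis) for 80 members, at 4 days and at 2 weeks. At 4 days nearly all points lie above 0 at every length (rho -0.15), and at 2 weeks the points rise with length (rho 0.71).

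The 10 most abundant members were Rpl41, Rps28, Rps29, Rps24, Rps19, Fau, Rpl37a, Rpl37, Rpl13 and Rpl21. Together these 10 held 19.99% and 18.02% of member UMIs in 2-week RFP and 24.8% to 29.5% in the other 8 libraries. Over both times Rpl13, which has the longest coding sequence of the 10, had a log2 fold change of 0.64 ± 0.21 (adjusted p = 0.221 in edgeR, 0.0294 in DESeq2). Rps19, which is mutated in some families with Diamond-Blackfan anaemia, was among the most even, with 0.432% ± 0.0324 (SD, n = 4) in RFP and 0.368% ± 0.0292 (SD, n = 4) in YFP and a log2 fold change of 0.10 ± 0.20. Rpl41 had -0.01 ± 0.32 and Rps29 -0.13 ± 0.26.

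As a part of all member UMIs, Rpl24, Rpl22, Rps27a and Rpl27a were among the members that varied least over the 10 libraries, and Rpl17, Rpl12, Rps27, Rps6 and Rpl35 varied most. Rpl24 moved with the sum of the members: its share of all UMIs was 0.145% and 0.147% in Confetti, 0.133% to 0.171% in the 4 YFP libraries and 0.182% to 0.254% in the 4 RFP libraries. Its log2 fold change was 0.45 ± 0.35 at 4 days and 0.29 ± 0.35 at 2 weeks. Rpl35, among the shortest members, had 0.92 ± 0.44 at 4 days and -0.39 ± 0.44 at 2 weeks, when the median of the shortest members was 0.08.

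Paralogs of 6 members were measured beside them. Rpl22l1, which resembles Rpl22 and can take its place, was at 0.0665% and 0.0604% in Confetti and at 0.0760% to 0.104% in mosaic YFP, and at 0.0883% to 0.127% in RFP. The YFP and RFP ranges of Rpl22l1 overlapped, and its log2 fold change between RFP and YFP over both times was 0.14 ± 0.23. For Rpl22 that value was 0.34 ± 0.23. Rps27l, a paralog of Rps27, had 0.61 ± 0.42 at 4 days and 0.14 ± 0.42 at 2 weeks, where Rps27 had 0.29 ± 0.29 and -0.61 ± 0.29. Rpl3l, the muscle form of Rpl3, gave 76 UMIs in all libraries together, Rpl39l 49 and Rpl10l 2, so their levels could not be compared at this depth. Ribosomal protein genes have many near-identical processed pseudogenes, and reads that match several places may be dropped or divided, so the level of a single member is less certain than its change between libraries counted the same way.

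Against Confetti, the values in 4-day RFP, 4-day YFP, 2-week RFP and 2-week YFP share the 2 Confetti libraries. The median log2 fold changes of members were 0.73, 0.23, 0.82 and 0.28 in that order, with 82, 78, 72 and 74 of 83 above 0. That of 2-week YFP was 0.008 without 2-week YFP replicate 2 and 0.50 without replicate 1. That of 4-day YFP was 0.41 without Confetti RFP, and that of 4-day RFP was 0.48 without 4-day RFP replicate 2. In cells of 3000 to 10000 UMIs that of 2-week RFP was 0.40. In edgeR's test no member passed against Confetti in any of the 4 (0%, 0%, 0.0202% and 0.00674% of all genes passed). At an unadjusted p under 0.05, 20 members were higher in 4-day RFP (4.54% of genes), 0 in 4-day YFP (0.931%), 43 in 2-week RFP (14.9%) and 0 in 2-week YFP (3.35%). These counts rest on single libraries. In 4-day RFP 0 members were higher without 4-day RFP replicate 2 (0.836% of genes), 38 without 4-day RFP replicate 1 (10.3%) and 1 without Confetti YFP (1.53%), and 8 to 12 when a 2-week library, which enters only through the shared spread, was left out (3.40% to 4.12% of genes). In 2-week RFP 13 were higher without 2-week RFP replicate 2 (7.75%) and 14 without Confetti YFP (7.61%). DESeq2 passed 1 member in 4-day RFP (Rpl12, beside 0.832% of genes higher), 0 in 4-day YFP (0.0235%), 35 in 2-week RFP and 0 in 2-week YFP (0.304%). Of those 35, 34 were higher, beside 7.71% of genes, and Rps27 was lower, beside 4.53%. In edgeR with the replicate number as a block, 31 members passed in 2-week RFP, all higher, beside 8.25% of genes. At an unadjusted p under 0.05 that block gave 52 members higher in 4-day RFP (6.91% of genes) and 53 in 2-week RFP (17.8%). The Confetti labels carry no replicate number. Both Confetti libraries were set midway between numbers 1 and 2 in this block, so these counts rest on that choice.

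The largest differences from Confetti in 2-week RFP were those of Rpl17 at 1.95 ± 0.40, Rpl12 at 1.86 ± 0.39 and Rps6 at 1.61 ± 0.33 (adjusted p in edgeR 0.0876, 0.0893 and 0.0872). In 2-week YFP the highest well-measured members were Rpl22l1 at 0.68 ± 0.35, Rps2 at 0.61 ± 0.38 and Rpl15 at 0.57 ± 0.36. In the 4-day and 2-week YFP libraries the fold changes against Confetti depend on the scaling: with library totals in place of TMM factors, the median of all genes moved to -0.11 and -0.20, and the members' medians to 0.05 and 0.05. The Confetti libraries held Xist at 0.0720% and 0.0718% of UMIs, above every mosaic library. Rpl10, Rpl36a, Rpl39 and Rps4x are X-linked. The part of the sex mix in their values, or in those of the other members, was not tested.

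Between the times, 24 members in RFP had both 2-week libraries above both 4-day libraries and 13 below, beside 24.9% and 16.8% of all genes. At an unadjusted p under 0.05, 3 of 83 members were higher at 2 weeks in RFP (5.16% of genes higher) and 5 lower (3.52% of genes lower), and 0 were higher in YFP (0.991%). In cells of 3000 to 10000 UMIs, 0 were higher and 14 lower in RFP (2.43% and 3.07% of genes). In RFP, 0 were higher and 10 lower without 4-day RFP replicate 1 (4.08% and 4.31% of genes), 3 and 1 without 4-day RFP replicate 2 (6.05% and 4.64%), 4 and 1 without 2-week RFP replicate 1 (5.30% and 5.06%), and 0 and 1 without 2-week RFP replicate 2 (1.14% and 1.16%). With any 1 of the 4 YFP libraries left out, 1 or 2 were higher and 4 to 6 lower, beside 3.68% to 4.92% and 2.92% to 4.01% of genes. No member passed in edgeR in either colour (0% of genes in both), and DESeq2 passed Rps27, lower at 2 weeks, in RFP (0.256% of genes passed as lower and 0.418% as higher) and 0 in YFP (0.044%). Leaving out the near-silent Rpl3l and Rpl39l, the log2 differences in RFP ran from -1.29 ± 0.44 for Rpl35 and -1.20 ± 0.40 for Rps28 to 0.80 ± 0.39 for Rpl17 and 0.85 ± 0.32 for Rps6. In YFP the median of the members was 0.05, and it was -0.22 and 0.28 without 2-week YFP replicates 2 and 1. The 6 heat-shock genes had medians between the times of 1.43 in RFP and 2.19 in YFP. They held 0.476% and 0.698% of UMIs in replicate 1 of 2-week RFP and YFP, and 0.0618% to 0.187% in the other libraries. Their part in the members' values was not tested.

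Other genes of protein synthesis were examined as lists. Translation elongation factors and other mRNAs with a pyrimidine tract (20 genes) held 1.55% ± 0.538 (SD, n = 4) of UMIs in RFP and 0.852% ± 0.0917 (SD, n = 4) in YFP. Over both times their median log2 fold change was 0.58, and 11 of 20 were higher at an unadjusted p under 0.05. Of all genes 8.55% were higher and 7.62% lower at that level, the shares to set beside each list that follows. Rack1, a scaffold protein of the small subunit that the name rule leaves out, had 1.17 ± 0.30.

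The 42 genes of ribosomal RNA synthesis and ribosome assembly summed to 0.295% ± 0.0613 (SD, n = 4) in RFP and 0.178% ± 0.00946 (SD, n = 4) in YFP, with a median log2 fold change of 0.72 and 24 of 42 higher at an unadjusted p under 0.05. Among them the nucleolar proteins Npm1 and Gnl3 had 1.25 ± 0.28 and 1.28 ± 0.28, and Polr1c, a polymerase subunit, had -0.56 ± 0.25. The 25 initiation factors had a median of 0.38, with 9 higher at that level. Of 20 regulators of growth and translation 3 were higher and 1 lower at that level, with a median of -0.04. One of them was Myc, at 2.57 ± 0.45 (adjusted p = 0.180). None of these 5 lists had a gene that passed the adjusted threshold in edgeR.

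The 78 mitochondrial ribosomal proteins, which serve a separate ribosome, had values on both sides of 0 between the colours. Over both times their median log2 fold change was -0.01, with 2 higher and 1 lower at an unadjusted p under 0.05. Against Confetti their medians in 2-week RFP and 2-week YFP were 0.58 and 0.53.

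**Figure D5:**
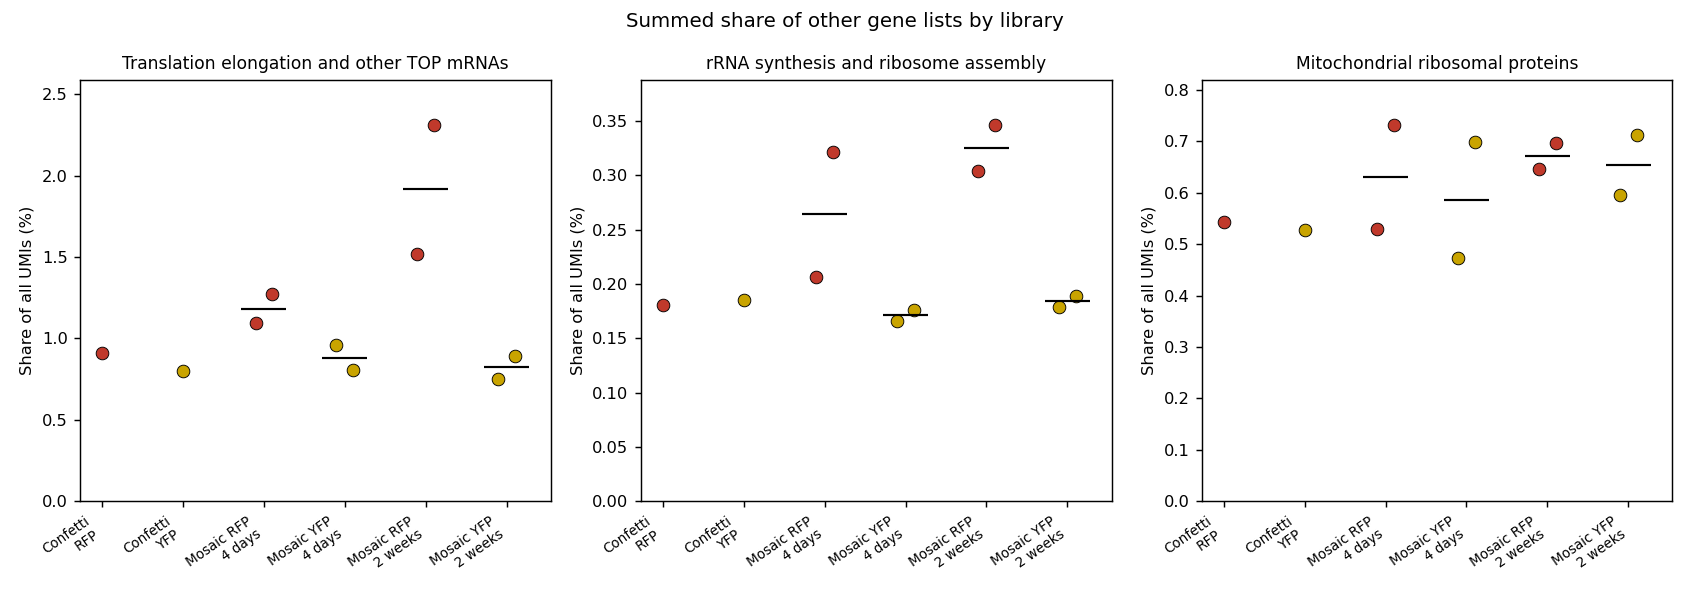
Summed share of all UMIs (%) of 3 other gene lists in each of the 10 libraries, with a point for each library and a line for the mean of a group of 2. The elongation and assembly lists are higher in RFP than in YFP, with means of 1.55% against 0.852% and 0.295% against 0.178%, and the mitochondrial ribosomal proteins overlap.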

How the data were processed

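Raw UMI counts per gene and cell were deposited by the authors as 10x matrices, made with Cell Ranger on GRCm38 (version 3.1.0 in the submitters' processing notes, 5.0.1 in the file headers); the sources also differ on the 10x chemistry. Groups came from the labels. Cells with at least 1000 genes, at most 50000 UMIs, at most 15% mitochondrial UMIs and 0 Ptprc UMIs were kept; no doublet caller was run on them here. Library barcodes shared between 2 libraries were at most 0.439% of a library. Counts were summed per library (8163707 to 71669755 UMIs) and all genes fitted with edgeR 4.0.16 (R 4.3.3; TMM, filterByExpr, quasi-likelihood, Benjamini-Hochberg), once over the 10 libraries with 6 groups, where Confetti is the mean of its 2 colours, and once over the 8 libraries of the mosaic line with a time term. This tested 83 and 81 of the 84 members. Errors of fold changes are SE from that fit. The code was tested on simulated data. At this depth the spread between libraries, not counting error, sets the precision of all but the near-silent members.

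Members and gene lists were chosen with earlier results of these data known. Genes are named as the most abundant, the most and least even, the most changed in each comparison, and paralog pairs. The split by coding length and the printed start sites were chosen after seeing the data. So were the cell choices by Cldn4 and by 4 leukocyte genes and the denominator without AT2 markers. Alternatives were DESeq2 1.42.0, other scaling, no gene filter, other cell choices, replicate blocks and leaving out each replicate. Some items, among them the mutant allele and single genes, are not reported here by name, and the genes stay in all sums and fits.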

Additional observations from a re-analysis of the deposited data

Results flagged for a closer look

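On the scale of shares of all UMIs, Rps27, Rps28, Rps29 and Rpl37a each had both RFP libraries above both YFP libraries at 4 days and below both at 2 weeks. The difference between the 2 effects, 2 weeks minus 4 days on the log2 scale, was -0.90 ± 0.41 (SE) for Rps27, -1.25 ± 0.56 for Rps28, -0.92 ± 0.45 for Rps29 and -0.74 ± 0.50 for Rpl37a. Rpl7l1 had the reverse order at the 2 times, with a difference of 0.44 ± 0.39. On TMM-scaled CPM only Rps27 of the first 4 kept its turn, and Rpl7l1 did not keep its own. In edgeR's interaction test none of these 5 genes passed (adjusted p = 1.00 for each), so the turn in order is a description of 4 libraries at each time.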

How the results depend on the processing

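The summed share was higher in all 4 RFP libraries than in all 6 wildtype libraries in each of 9 settings, with a ratio of RFP to YFP of 1.32 to 1.49. These settings do not include narrow ranges of depth, in some of which libraries overlapped. Scaling to the summed member UMIs, which sets the members' sum equal between libraries, brought the members' median log2 fold change to 0.06 over both times, 0.03 at 4 days, 0.12 at 2 weeks, and 0.04 and 0.19 in 4-day and 2-week RFP against Confetti. In every other setting it stayed above 0 over both times (0.33 to 0.61), at 4 days (0.25 to 0.71), at 2 weeks (0.17 to 0.82) and against Confetti in RFP (0.48 to 0.94 at 4 days, 0.40 to 1.01 at 2 weeks), and it changed sign between the times in either colour. The gap in median between the longest and the shortest members was above 0 at 2 weeks in these other settings (0.51 to 0.93) and ran from -0.29 to 0.22 at 4 days. Library-total scaling moved the median of all genes by over 0.1 over both times (to 0.08), at 2 weeks (to 0.12) and in YFP against Confetti, and the members' median over both times to 0.60. The 2 libraries a group limit every comparison at a single time, and 4-day RFP replicates 1 and 2 differ most in the members' summed share.

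The number of members called, 0 in each comparison, depended on the tool and the filter. Over both times it was 16 with DESeq2, 2 of 84 without a gene filter (Rpl12 and Rpl17, beside 1.90% of genes higher) and 0 to 3 when a replicate was left out; the 3 of 82, Rpl12, Rpl13a and Rpl17, were called without 4-day RFP replicate 1, beside 2.11% of genes higher. At 2 weeks it was 7 with DESeq2 and 1 of 84 without a gene filter (Rpl12, beside 0.981% of genes higher). Between the times in RFP DESeq2 called 1, and against Confetti it called 1 in 4-day RFP and 35 in 2-week RFP, where 8 of 84 were called without a gene filter, beside 5.76% of genes higher. At 2 weeks the members higher at an unadjusted p under 0.05 were 40 with library totals (9.90% of genes) and 35 with either replicate block (10.5% by number, 13.5% by time and number). Other alternatives, apart from those below, left each count at 0, and the causes were not tested.

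Replicates were also paired by number, although the labels do not say that same-numbered libraries share lungs. Libraries were made over 2 days according to the methods, and whether the numbers follow those days was not tested. RFP and YFP libraries of the same number deviated together across genes (r = 0.454 at 4 days, 0.568 at 2 weeks), which with 2 replicates is 1 value for each time. With the replicate number as a block, 31 members were called in 2-week RFP against Confetti, all higher, beside 8.25% of genes. The Confetti labels carry no number, and that count rests on placing both Confetti libraries midway between replicates 1 and 2. With each combination of time and number as a block, 1 member (Rpl12) was called over both times, beside 0.599% of genes. The replicate block left every other count at 0.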
